A study of Mus musculus with 6 samples.

Results

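The genes described here encode 9 proteins that fetal hepatocytes secrete into the plasma: Alb, Afp, Apoa1, Apoa2, Apob, Ttr, Ahsg, Fgb and Trf. They were chosen by gene symbol, as plasma proteins and apolipoproteins of the hepatocyte, and all 9 of 9 were found among the 17691 genes of the deposited tables. All 9 also passed the filter on low counts, which left 12283 genes to test. The libraries were made from erythroblasts (precursors of red cells that still have a nucleus), taken from C57BL/6J fetal livers as the fraction lacking TER119, which marks later erythroid stages. They were grown with erythropoietin (Epo) for 30 h, either untreated (libraries untreated 1 to 3) or with carbon dots made from the plant Codonopsis pilosula (CDs, 1 ug/ml, libraries CDs 1 to 3). The labels name neither the gestational age nor whether animals were pooled, and a cell that lacks TER119 need not be an erythroblast. The comparison asks how the RNA of these genes differed between treated and untreated cultures, and how it varied between the libraries of a group.

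In the fetal liver, red cell precursors mature between hepatocytes, which already make most proteins of the plasma. Albumin, the main carrier protein, and alpha-fetoprotein, its fetal relative, are encoded by neighbouring genes, and alpha-fetoprotein is largely switched off after birth. Transferrin carries iron to the transferrin receptor of erythroblasts. Apolipoproteins A-I and A-II form high-density lipoprotein, and apolipoprotein B forms the larger particles that carry lipid out of the liver. Transthyretin carries thyroid hormone and retinol-binding protein, fetuin-A (Ahsg) binds mineral, and Fgb is the beta chain of fibrinogen.

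Libraries held 17695997 to 20066581 expected counts. Globin and other erythroid markers dominated them, with the 12 listed erythroid genes at 11.7% to 13.9% of the counts, and both libraries numbered 3 stood apart from the others in many genes. Macrophage markers (17 listed genes) summed to 210, 611 and 5769 CPM (counts scaled to a common library size with TMM factors) in untreated 1 to 3, and to 494, 2037 and 7442 CPM in CDs 1 to 3. The granulocyte list (9 genes) summed to 269, 841 and 2065 CPM in untreated libraries, and to 380, 1273 and 2130.0 CPM in CDs libraries. Among macrophage markers Vsig4, Clec4f, Timd4 and Cd163 were at most 0.34 CPM in any library, so these sums were carried by the other 13 genes of the list. The part of these cells in the values below was not tested, and in such bulk samples fewer cells of a type and less RNA per cell cannot be told apart.

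Alb and Afp lie side by side on chromosome 5, 14111 bases apart, and a further member of their family, Afm, starts 10041 bases beyond Afp. The bases before their start sites are shown because these neighbours differed widely in level, with those of Fgb for comparison (RefSeq, GRCm38.p6, 250 bases before the start, in the direction of the gene). Capitals mark GTTAAT on either strand (ATTAAC when it lies on the opposite strand), the core of the site of HNF1, a transcription factor of hepatocytes.
Alb, chr5:90460620-90460869, plus strand: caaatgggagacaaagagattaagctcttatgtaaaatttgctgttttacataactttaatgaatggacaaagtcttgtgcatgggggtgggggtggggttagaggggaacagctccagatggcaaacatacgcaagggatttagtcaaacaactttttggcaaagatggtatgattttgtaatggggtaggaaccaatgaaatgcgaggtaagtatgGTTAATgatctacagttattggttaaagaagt
Afp, chr5:90490464-90490713, plus strand: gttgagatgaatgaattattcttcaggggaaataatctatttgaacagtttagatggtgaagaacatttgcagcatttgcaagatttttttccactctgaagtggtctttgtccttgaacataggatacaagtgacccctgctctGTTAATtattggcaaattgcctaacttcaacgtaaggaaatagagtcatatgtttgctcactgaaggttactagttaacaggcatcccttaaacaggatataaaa
Afm, chr5:90518699-90518948, plus strand: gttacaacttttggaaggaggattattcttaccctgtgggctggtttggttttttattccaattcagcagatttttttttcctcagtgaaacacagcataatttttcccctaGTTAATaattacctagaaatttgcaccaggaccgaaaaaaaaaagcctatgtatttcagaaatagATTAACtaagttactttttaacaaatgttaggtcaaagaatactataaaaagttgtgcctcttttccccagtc
Fgb, chr3:83049864-83050113, minus strand: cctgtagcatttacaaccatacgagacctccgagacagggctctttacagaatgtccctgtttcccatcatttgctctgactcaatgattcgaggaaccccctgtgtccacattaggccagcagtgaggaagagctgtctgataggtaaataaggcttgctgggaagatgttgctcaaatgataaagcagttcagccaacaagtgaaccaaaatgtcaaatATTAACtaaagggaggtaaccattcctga

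The RefSeq promoter table matched 7 of the 9 genes, all but Ttr and Trf. GTTAAT stood in the window of 3 of these 7, Alb, Afp and Fgb, and in 6.43% of all 32851 windows. The first capital as printed lay 32 bases before the start in Alb, 105 in Afp and 29 in Fgb, where the letters read ATTAAC. Afm held 2 copies, yet its level was 0, 0 and 0.15 CPM in untreated and 0, 0.10 and 0.29 CPM in CDs libraries. The full palindrome of HNF1 and the HNF4 sequence CAAAGTCCA were in none of the 7. TGTTTAC, bound by FOXA factors, was found in Apoa2 (3.17% of all windows), and of the C/EBP forms searched on both strands TTGCGNAA was in Ahsg (0.67%) and TTGCNCAA in Fgb (2.61%). TATAAA was in Afp, Apoa2 and Apob (12.4% of all windows). These are matches of letters only.

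Per length of transcript, Afp, Trf and Alb formed a high group and the other 6 a low one. Mean FPKM (fragment counts scaled by transcript length and depth, the authors' values) over the 6 libraries was 78.3 for Afp, 51.4 for Trf and 44.7 for Alb, against 5.05 for Fgb, 4.12 for Ahsg, 3.64 for Apoa1, 2.69 for Apoa2, 2.36 for Ttr and 0.835 for Apob. Afp exceeded Trf, Trf exceeded Alb, Alb exceeded Fgb and Ttr exceeded Apob in 6 of 6 libraries. Neighbours from Fgb down to Ttr changed places between libraries (Fgb above Ahsg in 4 of 6, Ahsg above Apoa1 in 3, Apoa1 above Apoa2 in 5, Apoa2 above Ttr in 4) and were not separated beyond their spread. Afp ranked 1017th of all 17691 genes by mean FPKM and Alb 1811th, while Apob ranked 10493rd. Afp, Alb and Trf together made up 91.0% to 92.1% of the summed CPM of the 9 genes in every library.

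**Figure D1:**
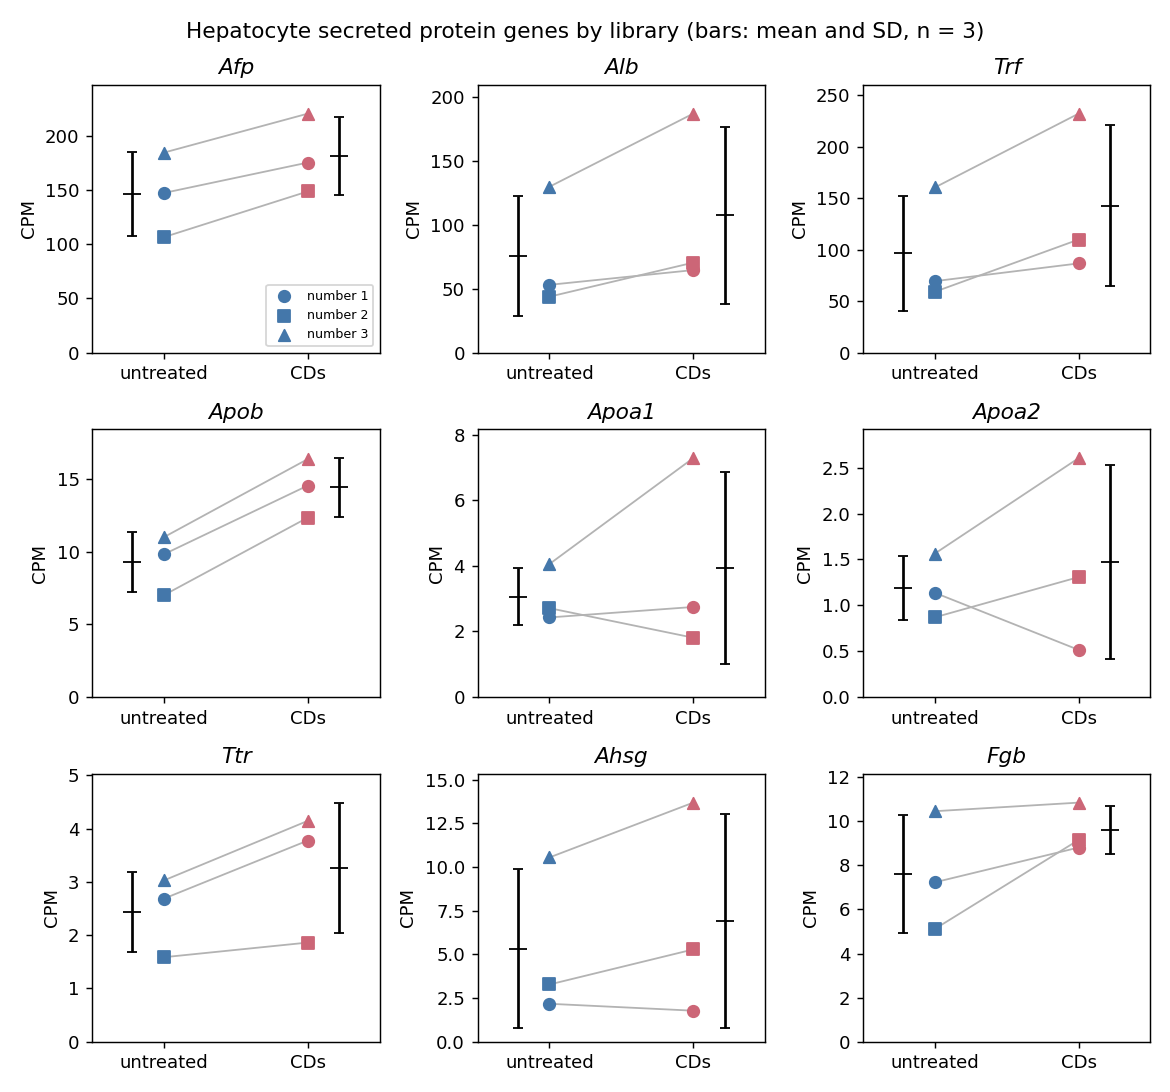
Level of each of the 9 genes (CPM, vertical axes from 0) in untreated and CDs libraries, with grey lines joining libraries of the same number and black bars for the mean and SD over 3 libraries. Triangles (number 3) are the highest of their group in all 9 genes, and in Apob all 3 CDs libraries (12.3 to 16.35 CPM) lie above all 3 untreated ones (7.01 to 10.99 CPM).

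Alb (Entrez 11657, chromosome 5, 90460870 to 90476602) measured 53.1, 43.8 and 129.8 CPM in untreated 1 to 3 and 64.6, 70.4 and 187 CPM in CDs 1 to 3. Each CDs library was above the untreated library of its number, but untreated 3 was above CDs 1 and CDs 2, so the groups overlapped. The untreated mean was 75.5 ± 47.2 CPM (SD, n = 3) and the treated mean 107 ± 69.1 CPM. The fitted change was 0.51 ± 0.62 (SE, log2). Without CDs 3 that value turned to -0.16. Afp (Entrez 11576, chromosome 5, 90490714 to 90508907), the fetal relative of albumin, measured 147, 107 and 184 CPM untreated and 175, 149 and 220.3 CPM with CDs. Its libraries were much closer together, with 1.73 between the highest and lowest untreated library against 2.96 for Alb, and again the treated library was the higher in all 3 pairs. The log2 fold change was 0.31 ± 0.26.

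Trf, transferrin (Entrez 22041, chromosome 9, 103208876 to 103230286), measured 69.4, 59.1 and 160.3 CPM untreated and 86.6, 109.8 and 232 CPM with CDs. It followed Alb closely from library to library, and was higher with CDs in all 3 pairs, by 1.25, 1.86 and 1.45 times. Means were 96.2 ± 55.7 and 143 ± 78.1 CPM (SD, n = 3), with a log2 fold change of 0.57 ± 0.55. The ratio of Trf to Alb in FPKM stayed between 1.09 and 1.38 in the 6 libraries. The ratio of Afp to Alb did not stay level. It was 2.74, 2.40 and 1.404 in the untreated libraries, against 2.68, 2.08 and 1.16 in the treated ones, lower in both libraries numbered 3 than in any other. In each numbered pair the ratio was lower with CDs. Between groups it was 2.18 ± 0.695 and 1.98 ± 0.763 (SD, n = 3), a difference within the spread between libraries, and it was not tested.

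Apob (Entrez 238055, chromosome 12, 7977629 to 8016839) is the apolipoprotein of low-density particles. It measured 9.82, 7.01 and 10.99 CPM untreated and 14.5, 12.3 and 16.35 CPM with CDs, from 137 to 339 counts per library. Every CDs library lay above every untreated one, as in no other of the 9 genes, and 2.37% of all genes tested showed the same (2.33% the reverse, with no member). Means were 9.27 ± 2.05 and 14.4 ± 2.01 CPM (SD, n = 3), a log2 fold change of 0.63 ± 0.23, and the pairs gave 1.48, 1.76 and 1.49 times. Its value stayed between 0.47 and 0.77 when any 1 library was left out. In the edgeR quasi-likelihood test without a block Apob had the smallest unadjusted p of the 9 genes (0.0363, adjusted p = 0.994, and 0.0126 to 1.00 over the alternatives), and the difference did not pass adjustment over all genes.

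The apolipoproteins of high-density particles behaved less evenly. Apoa1 (Entrez 11806, chromosome 9, 46228630 to 46230469) measured 2.43, 2.71 and 4.06 CPM untreated and 2.75, 1.81 and 7.28 CPM with CDs, from 36 to 151 counts. Number 2 was lower with CDs and number 3 higher. The log2 fold change of 0.36 ± 0.58 became -0.43 without CDs 3. Apoa2 (Entrez 11807, chromosome 1, 171221564 to 171226379) was the lowest of the 9 in counts, with 9 in CDs 1 and 54 in CDs 3. It measured 1.14, 0.87 and 1.56 CPM untreated and 0.515, 1.31 and 2.60 CPM with CDs. CDs 1 was the lowest of the 6 libraries and CDs 3 the highest. The log2 fold change of 0.31 ± 0.62 became -0.38 without CDs 3. Apoa2 overlaps Tomm40l, and without a step that marks strand reads of both could be exchanged.

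Ttr, transthyretin, measured 2.69, 1.59 and 3.03 CPM untreated and 3.78, 1.86 and 4.15 CPM with CDs. It was higher with CDs in all 3 pairs (log2 fold change 0.42 ± 0.42). Both libraries numbered 2 were the lowest of their group. Fgb, the fibrinogen beta chain (Entrez 110135, chromosome 3, 83042246 to 83049863), measured 7.23, 5.12 and 10.46 CPM untreated and 8.81, 9.16 and 10.85 CPM with CDs. Each CDs library exceeded its partner, but by only 1.04 times in number 3 (log2 fold change 0.34 ± 0.30). Ahsg, fetuin-A (Entrez 11625, chromosome 16, 22892015 to 22899451), varied most within the untreated group. It measured 2.17, 3.27 and 10.55 CPM there and 1.77, 5.28 and 13.7 CPM with CDs, so that untreated 3 was 3.88 times and CDs 3 also 3.88 times the mean of libraries 1 and 2 of their group. CDs 1 was below untreated 1. The log2 fold change of 0.38 ± 0.92 became -0.59 without CDs 3 and -0.0019 without untreated 1. Ahsg and Ttr each overlap a predicted gene in RefSeq (Gm30505 and Gm16090), with the same limit on strand.

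**Figure D2:**
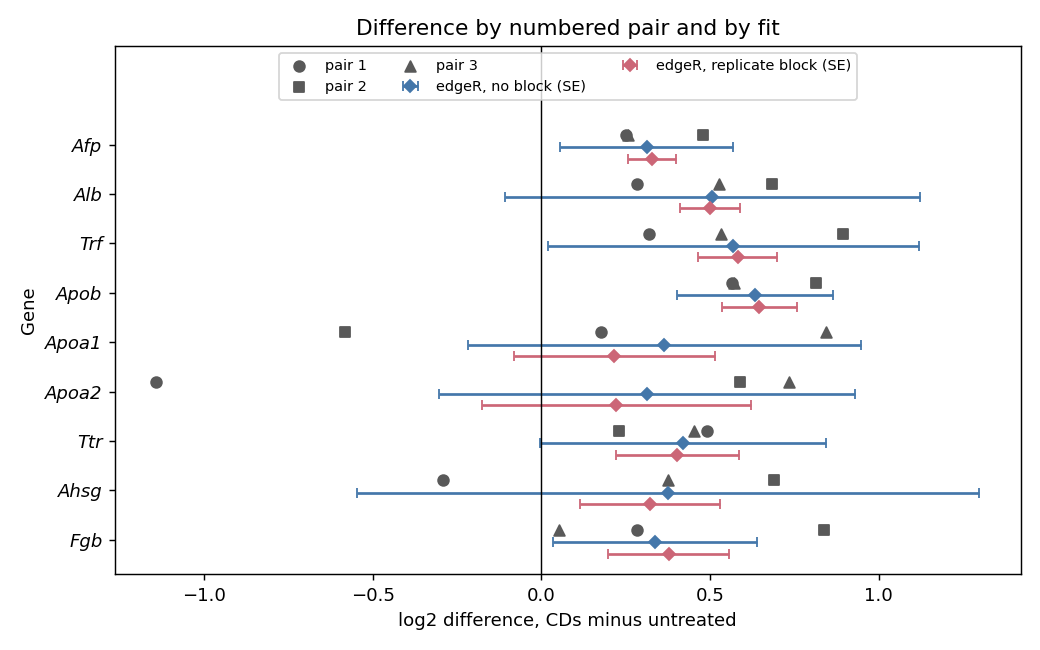
Difference in log2 CPM between the CDs and the untreated library of each number (grey symbols), and the fitted log2 fold change with its SE without (blue) and with (red) the replicate number as a block, for the 9 genes. In Afp, Alb, Trf, Apob, Ttr and Fgb all 3 pairs lie above 0, while Apoa1, Apoa2 and Ahsg each have 1 pair below 0.

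Across the set, all 9 log2 fold changes were above 0, with a median of 0.38. Over all genes tested the median was 0.01, and 51.9% were above 0. In 6 of the 9 each CDs library exceeded its numbered partner, as in 30.2% of all genes. None of the 9 was lower in each pair (26.2% of all genes). Lists of other cells were mostly above 0 too, with 13 of 13 macrophage (median 0.67), 9 of 9 granulocyte (0.29) and 6 of 6 mesenchyme markers (0.36). The same held for 6 of 7 endothelial (0.59) and 5 of 6 megakaryocyte markers (0.28), but only for 3 of 12 erythroid ones (-0.05). In the test without a block (edgeR, threshold 0.05 after adjustment) none of the 9 passed, and 0 of 12283 genes did (0%). At an unadjusted p under 0.05 it held 127 genes (1.03%), 0.708% of all genes being higher with CDs, Apob among them. DESeq2 called 14 genes (0.114%) and limma-voom 0, none of them a member. That test counts the spread between numbered pairs as noise.

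Within numbered pairs the differences were more even. With the replicate number as a block, edgeR gave log2 fold changes of 0.65 ± 0.11 (SE) for Apob, 0.58 ± 0.12 for Trf, 0.50 ± 0.09 for Alb and 0.33 ± 0.07 for Afp. Each of these 4 had an adjusted p = 0.0916 in that fit, and they were the members under 0.10, where 5.17% of all genes were called higher. At 0.05 this fit called none of the 9 and 5 genes in all (0.0407%). DESeq2 with the block called those 4, Trf (adjusted p = 0.00296), Alb (0.00477), Apob (0.0216) and Afp (0.0364), among 7.76% of all genes called higher (9.85% in either direction). In limma-voom with the block none of the 9 passed 0.05 (0.057% of all genes did), and these 4 were at an adjusted p = 0.08095. Over the alternatives their adjusted p ran from 0.00296, 0.00477, 0.0126 and 0.0134 (Trf, Alb, Apob, Afp) to 1.00. The other 5 did not pass in any fit (DESeq2 with the block gave no adjusted p for Apoa2). With the block they were at 0.40 ± 0.18 (Ttr), 0.38 ± 0.18 (Fgb), 0.32 ± 0.21 (Ahsg), 0.22 ± 0.30 (Apoa1) and 0.22 ± 0.40 (Apoa2). When both libraries numbered 3 were left out and the block kept, edgeR called Alb (0.46 ± 0.11, adjusted p = 0.0122), Apob (0.66 ± 0.17, adjusted p = 0.0126) and Afp (0.34 ± 0.09, adjusted p = 0.0134), where 12.2% of all genes were called higher, and Trf was at 0.59 ± 0.15 (adjusted p = 0.0514). That fit was chosen after seeing the data. Few libraries remained beyond its block and treatment terms to estimate the spread of each gene. Its calls, here and below, therefore lean on spread shared across genes. The same fit called 10 of 13 macrophage and 9 of 9 granulocyte markers higher. In the same numbered pairs the summed macrophage markers were also higher with CDs in each, as the sums above show, and their part in these differences was not tested.

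Library 3 was the highest of its group in 9 of 9 genes, in both groups, and in 41% of all genes tested (45.9% in the untreated group and 45.8% with CDs). As a sum, the 9 genes measured 295, 230.0 and 515 CPM in untreated 1 to 3 and 359, 361 and 694 CPM in CDs 1 to 3. Set against the mean of libraries 1 and 2, untreated 3 held 2.68 times the Alb RNA, 2.50 times the Trf and 3.88 times the Ahsg RNA. Afp (1.45), Ttr (1.42) and Apob (1.31) were far closer to level. Macrophage markers in the same libraries had a median of 16.9 times, granulocyte markers 4.21, endothelial markers 5.26, mesenchyme markers 1.54 and erythroid markers 0.807, against 0.996 over all genes tested. In the CDs group the corresponding values were 2.77 for Alb, 2.36 for Trf, 3.88 for Ahsg, 1.36 for Afp, 1.22 for Apob and 6.19 for macrophage markers. Fgb was at 1.69 untreated and 1.21 with CDs, while Apoa1 (1.58 and 3.20) and Apoa2 (1.56 and 2.86) had the higher ratio in the CDs group. The ratio of the group means, CDs over untreated, lay between 1.24 (Apoa2 and Afp) and 1.55 (Apob) in the 9 genes.

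**Figure D3:**
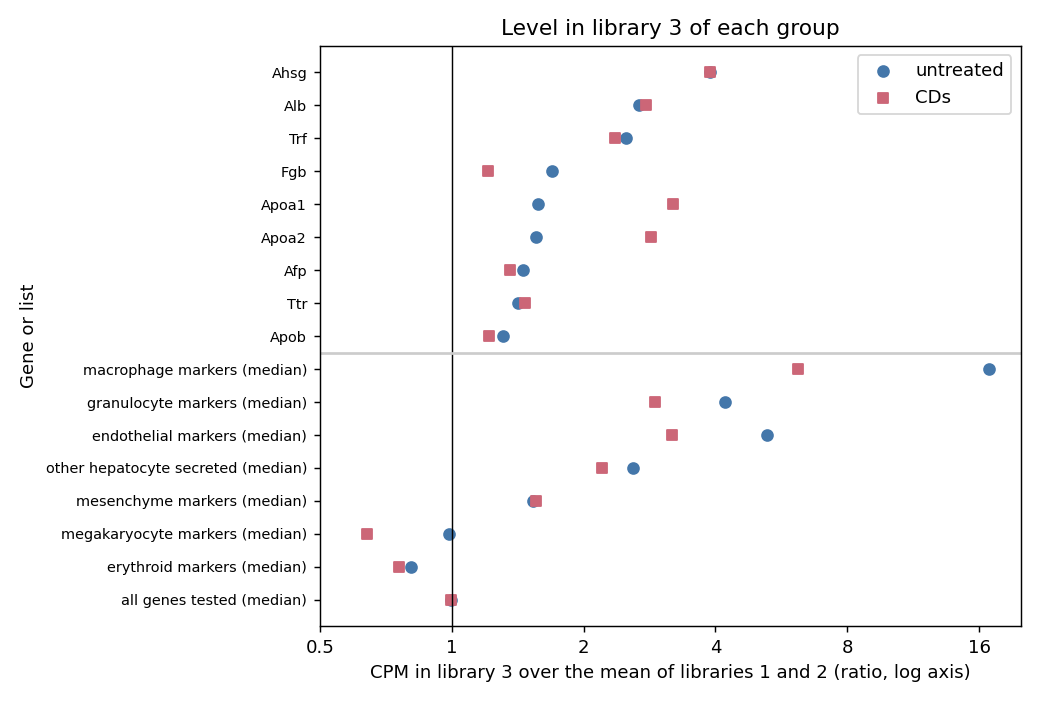
CPM in library 3 divided by the mean of libraries 1 and 2 of its group (log axis), for each of the 9 genes and as the median of each marker list, untreated (circles) and CDs (squares). Ahsg, Alb and Trf lie between 2.36 and 3.88 in both groups, Afp, Ttr and Apob between 1.22 and 1.47, and macrophage markers at 16.9 and 6.19.

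The 9 genes did not keep to a single pattern over the 6 libraries. Pearson correlations of log2(CPM + 0.5) between members, a description over 6 libraries that share numbers and depth, had a median of 0.73 over the 36 pairs of genes. Alb and Trf were the closest (0.99), then Afp and Fgb (0.94), while Ttr and Ahsg were the farthest apart (0.26). With the mean of the macrophage list Ahsg stood at 0.955, Trf at 0.94 and Alb at 0.91, and with that of the granulocyte list at 0.94, 0.77 and 0.74. Alb and Trf stood at 0.96 and 0.97 with the endothelial list and at -0.96 and -0.94 with the erythroid list. Ttr was at 0.36 with the macrophage and 0.04 with the granulocyte list. Afp stood at 0.67 and 0.37, and Apob at 0.52 and 0.24. Outside the lists, the genes most like the mean of the 9 were Zscan26 (0.998), Tmem135 (0.997), Sfi1 (0.997), Ahcyl2 (0.996), Stam2 (0.996) and Atxn7l1 (0.996). Zscan26, the closest, measured 10.8, 9.41 and 17.7 CPM untreated and 11.9, 12.4 and 22.2 CPM with CDs. Of the 11310 genes compared, 19.2% reached 0.9. The closest genes to single members were Zscan26 and Ahcyl2 for Alb, Plekha3 and Ccdc91 for Afp, Galm and Castor2 for Trf, Cdip1 and Usp12 for Apob, Them4 and Cog3 for Apoa1, Scp2 and Ankrd40 for Apoa2, Cstf2t and Sh2d4b for Ttr, Bsdc1 and 0610040J01Rik for Ahsg, and Sfmbt2 and Pcnx4 for Fgb.

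Other genes of the hepatocyte were mostly low in these libraries. Of 24 listed enzymes, keratins, surface proteins and fetal transcripts in the table, 17 averaged under 1 CPM and 2, Tdo2 and Cyp3a11, had no count in any library. Several enzymes and surface proteins that mark hepatocytes were near 0, with Otc at most 0.10 CPM, Asgr1 0.14, Slc2a2 0.19 and Fabp1 0.15 in any library. Afp was never below 106.5 CPM. Other enzymes were higher, with Ass1 at 14.3 to 34.9 CPM, Mttp at 3.83 to 5.16 CPM and Fah at 1.91 to 4.18 CPM. The member Apoa2, at 0.515 to 2.60 CPM, was below Mttp in every library. The label of the set, as hepatocyte genes, therefore holds for what these proteins are known for. Most enzyme and surface markers of that cell averaged under 1 CPM, far below Afp, Alb and Trf but not below every member by much. Krt8 and Krt18, the keratins of simple epithelia, were present at 18.9 ± 13.3 and 16.5 ± 12.1 CPM (SD, n = 3) untreated and 23.9 ± 10.96 and 19.8 ± 8.49 CPM with CDs. The fetal growth factor gene Igf2 measured 8.21, 6.39 and 11.4 CPM untreated and 11.1, 8.05 and 17.6 CPM with CDs, and Dlk1, a hepatoblast surface protein, 5.55 ± 3.12 and 7.11 ± 2.197 CPM. Ass1 (21.6 ± 11.6 and 21.3 ± 1.75 CPM), of the urea cycle, and Mttp (4.94 ± 0.161 and 4.69 ± 0.744 CPM), which loads lipid onto apolipoprotein B, did not pass in any fit over all 6 libraries. Ass1 with CDs was 1.36 and 1.38 times its partner in numbers 1 and 2 and 0.657 times in number 3. Among the 8 tested, 6 log2 fold changes were above 0 (median 0.27, against 51.9% above 0 over all genes tested). Without the block 0 passed. In edgeR with the block 1, Igf2, was under an adjusted p of 0.10 (0.47 ± 0.12, adjusted p = 0.0996), where 5.17% of all genes were called higher. On numbers 1 and 2 alone, edgeR with the block called 3 of the 7 then tested higher, where 12.2% of all genes were called higher. They were Krt8 (0.63 ± 0.15, adjusted p = 0.00813), Krt18 (0.63 ± 0.16, adjusted p = 0.0124) and Ass1 (0.43 ± 0.14, adjusted p = 0.0402).

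**Figure D4:**
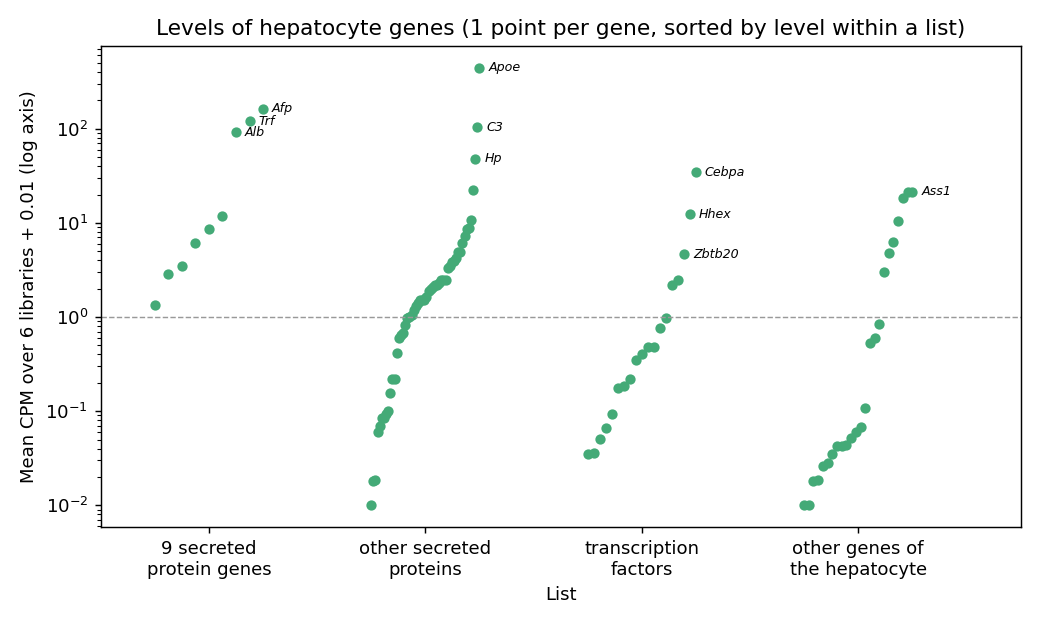
Mean CPM over 6 libraries plus 0.01 (log axis) of each gene in the 4 hepatocyte lists, sorted by level within a list, with the highest named. All 9 secreted protein genes lie above 1 CPM (dashed line), while 17 of 24 other genes of the hepatocyte lie below it.

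Transcription factors of the hepatocyte were low as well, with 14 of 19 under a mean of 1 CPM. Hnf4a, a master factor of hepatocytes, measured 1.86, 1.59 and 2.10 CPM untreated and 2.35, 2.77 and 4.15 CPM with CDs. These groups did not overlap, as in 2.37% of all genes tested with CDs higher. The log2 fold change of 0.74 ± 0.31 did not pass in any fit listed here (edgeR adjusted p = 0.994, and 0.113 with the block). Cebpa, shared by hepatocytes and myeloid cells, measured 5.01, 10.1 and 63.3 CPM untreated and 8.87, 25.2 and 94.0 CPM with CDs, a rise with library number like that of macrophage markers. With the block it was at 0.88 ± 0.16 (edgeR adjusted p = 0.0916, DESeq2 adjusted p = 0.000592). Hhex followed it, at 9.94 ± 10.9 and 14.9 ± 11.22 CPM (SD, n = 3). Both were called higher by edgeR with the block on numbers 1 and 2 alone (adjusted p = 0.000467 and 0.00178), as were 12.2% of all genes. Zbtb20 (4.09 ± 1.79 and 5.20 ± 1.76 CPM) and Zhx2 (1.83 ± 0.908 and 2.56 ± 1.51 CPM), both known to repress Afp after birth, did not pass. All 6 tested factors, Cebpa and Hhex among them, were higher with CDs in all 3 pairs, as were 30.2% of all genes tested. Their median log2 fold change was 0.65.

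The other secreted proteins gave 38 tested genes. Of these, 32 had a log2 fold change above 0 (median 0.24) and 16 were higher in all 3 pairs. Over all genes tested these shares were 51.9% and 30.2%. Of the 38, 0 passed in edgeR or DESeq2 over all 6 libraries, with or without the block. In edgeR with the block on numbers 1 and 2 alone, 3 of the 32 then tested were called higher, where 12.2% of all genes were. They were C3 (0.63 ± 0.10, adjusted p = 0.000195), Hp (0.75 ± 0.13, adjusted p = 0.00116) and F10 (0.81 ± 0.19, adjusted p = 0.00633). In number 3 each of these was lower with CDs. The most abundant of them are made by blood cells too. Apoe, a lipoprotein of macrophages as well as hepatocytes, measured 66.2, 120.0 and 976 CPM untreated and 80.6, 288 and 1131 CPM with CDs. C3 (complement), Hp (haptoglobin), F10 and F5 (coagulation factors) followed, with untreated 3 at 5.35, 5.34, 6.70 and 2.69 times the mean of untreated 1 and 2. Their group means were 101.8 ± 105.8 and 107 ± 76.4 CPM (SD, n = 3) for C3, 43.9 ± 45.9 and 52.6 ± 40.6 CPM for Hp, 21.7 ± 25.03 and 22.8 ± 17.9 CPM for F10, and 9.96 ± 6.55 and 11.4 ± 4.82 CPM for F5. In Serpina1b, an antitrypsin of hepatocytes with near-identical copies, untreated 3 was 1.64 times the mean of untreated 1 and 2. It measured 6.87, 5.73 and 10.3 CPM untreated and 7.95, 7.95 and 14.7 CPM with CDs.

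Of the receptors and handlers of these proteins, several were abundant in the libraries. Tfrc, the transferrin receptor, measured 2819, 2697 and 1516 CPM untreated and 3306, 2437 and 1375 CPM with CDs, lowest in the libraries where Trf was highest, and did not differ between groups beyond its spread (log2 fold change of 0.02 ± 0.41). Steap3, which reduces the iron that transferrin delivers, was lower with CDs in all 3 pairs (-0.29 ± 0.09 with the block, edgeR adjusted p = 0.116). Scarb1, the receptor of high-density particles, was at 137 ± 8.31 and 169.7 ± 5.48 CPM (SD, n = 3) without overlap (0.31 ± 0.06 with the block, edgeR adjusted p = 0.0916). Such a lack of overlap, with CDs higher, held in 2.37% of all genes tested. Lrp1, a scavenger receptor of macrophages and other cells, measured 224 ± 306 and 356 ± 372 CPM. Of the 16 tested, none passed an adjusted p of 0.05 in either edgeR fit over all 6 libraries. DESeq2 with the block called 4 higher and 3 lower, where 7.76% of all genes were called higher and 9.85% in either direction. On numbers 1 and 2 alone, edgeR with the block called 6 higher and 3 lower, against 12.2% of all genes higher and 2.97% lower. With the block 3 were higher (among them Scarb1 and Fcgrt, the receptor that recycles albumin) and 3 lower (Abca1 and Abcg1, which export sterol to high-density particles, and Tfr2) at an adjusted p under 0.10 (all at 0.0916), against 8.3% of all genes called in either direction. Fcgrt, Abca1, Abcg1 and Tfr2 are named here after their values were seen. Fcgrt measured 1.76, 3.79 and 30.9 CPM untreated and 4.81, 20.7 and 73.7 CPM with CDs, and Abcg1 105.9, 104.9 and 263 CPM untreated and 10.2, 14.6 and 91.6 CPM with CDs.

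Markers of the remaining cell types, the most abundant of each list, stood as follows. Lyz2 and Mpeg1 of macrophages averaged 580 ± 745 and 434 ± 642 CPM (SD, n = 3) untreated and 692 ± 655 and 692 ± 830 CPM with CDs. Ngp and Mpo of granulocytes averaged 296 ± 302 and 211 ± 101 CPM untreated and 324 ± 285 and 284 ± 94.9 CPM with CDs. Collagen genes of mesenchyme were at 66.6 ± 35.7 (Col1a1) and 47.5 ± 20.9 CPM (Col3a1) untreated and 84.1 ± 35.1 and 55.2 ± 16.5 CPM with CDs, while the stellate cell markers Lrat, Des and Dcn were at most 0.17 CPM in any library. Pecam1 of endothelium averaged 17.1 ± 18.2 and 25.7 ± 20.3 CPM, and Flt1 145 ± 12.3 and 372 ± 112 CPM. Flt1 did not overlap between groups, as in 2.37% of all genes tested with CDs higher. DESeq2 without the block called it (adjusted p = 0.0116), as it did 0.114% of all genes. Unlike the median of its list, Flt1 in library 3 was 0.88 (untreated) and 0.58 times (CDs) the mean of libraries 1 and 2. Pecam1 was at 5.7 and 3.2 times. Itga2b and Gp9 of megakaryocytes averaged 39.0 ± 1.64 and 17.8 ± 3.90 CPM untreated and 48.1 ± 10.5 and 15.0 ± 5.17 CPM with CDs. The erythroid genes Hbb-bs and Hba-a1 had log2 fold changes of -0.04 ± 0.19 and -0.05 ± 0.19.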

How the data were processed

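Polyadenylated RNA was sequenced in 6 libraries, 3 per group, and read from a single end, per the labels' protocols, which name no step that marks strand. Build GRCm38.p6 and the tools RSEM 1.2.12, HISAT2 2.0.4, DESeq2 1.4.5 and Bowtie2 2.2.5 appear in the submitters' processing notes, with no role given. The authors deposited expected counts per gene (30.1% of the values not whole), which were rounded here, and FPKM values, a unit worked out from the deposited numbers, used for levels between genes only. Genes were matched to RefSeq by Entrez number, and 24 symbols turned into dates were restored.

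Genes were filtered with filterByExpr, given TMM factors, and fitted in R 4.3.3 by the quasi-likelihood method of edgeR 4.0.16 over all 12283 genes, with Benjamini-Hochberg adjustment and a threshold of 0.05. DESeq2 1.42.0, limma-voom (limma 3.58.1), other scalings, no filter, a replicate block and libraries left out were the alternatives. Only edgeR on all libraries, with and without the block, was also run on simulated counts. DESeq2, limma-voom and the fits with libraries left out were not. The counts simulated for the block had the pairing built in, so they cannot show that it holds. Deviations from the group means correlated at 0.91, 0.34 and 0.94 between libraries of the same number. All were above 0.1, the limit set for taking numbers as pairs. Libraries of different numbers were not compared in this way, so these values cannot show that numbers pair the libraries. The labels state no pairing, and every fit with the replicate block assumes it. The labels do not say whether replicates were separate cultures, so p-values reflect the spread among these samples alone, which may be technical.

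The members and lists were chosen with earlier results of these data known. The named genes are all members, the most abundant genes of each list and the genes most correlated with the members. Some genes of the lists are counted but not reported here by name.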

Additional observations from a re-analysis of the deposited data

How the results depend on the processing

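The count of called genes, 0 in edgeR without the block, was 14 in DESeq2 without it, and with the replicate block 5 in edgeR, 7 in limma-voom, 1210 in DESeq2 and 1835 in edgeR without both libraries numbered 3 (the last chosen after seeing the data). It stayed at 0 under other scalings, without the filter, in limma-voom and with any 1 library left out. With the replicate block DESeq2 called Alb (log2 fold change 0.48), Afp (0.31), Apob (0.63) and Trf (0.57). With it edgeR on numbers 1 and 2 called Alb (0.46), Afp (0.34) and Apob (0.66). The block changed no other call among the 9. Without both libraries numbered 3 Apoa1 and Apoa2 turned to -0.20 and -0.15, and with the block to -0.215 and -0.18. Leaving out 1 library gave ranges of -0.16 to 1.15 for Alb, 0.13 to 0.51 for Afp, -0.43 to 0.69 for Apoa1, -0.38 to 0.71 for Apoa2, 0.47 to 0.77 for Apob, 0.19 to 0.68 for Ttr, -0.59 to 1.34 for Ahsg, 0.12 to 0.64 for Fgb and 0.03 to 1.15 for Trf. The values below 0 came without CDs 3, and in Ahsg also without untreated 1 (-0.0019). Counts under 100 in some libraries limit Apoa1, Apoa2, Ttr and Ahsg.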

Other observations

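Neighbouring genes of the same clusters differed in level. On chromosome 3 the 3 fibrinogen genes Fgg, Fga and Fgb lie in a row, with 11096 and 8618 bases between them. Fga measured 3.93, 3.43 and 6.89 CPM in untreated 1 to 3 and 3.89, 4.38 and 6.90 CPM in CDs 1 to 3, and Fgg 1.55, 1.18 and 2.83 CPM and 1.09, 2.11 and 3.09 CPM. Both chains were below Fgb in all 6 libraries on this scale, which is not corrected for length. Next to Apoa1 on chromosome 9, Apoa4 had no count in any library and Apoa5 was at most 0.05 CPM. Gc, the vitamin D binding protein of the albumin family, measured 3.82, 2.05 and 5.28 CPM untreated and 3.55, 2.92 and 5.79 CPM with CDs, with number 3 the highest in both groups, as in Alb. On chromosome 16 Ahsg has Fetub, the gene of fetuin-B, 18930 bases away, and Fetub was at most 0.15 CPM in any library.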
